A study of Mus musculus with 45 samples.

Results

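The regions described here are the open chromatin regions (OCRs) around 37 mouse genes that encode subunits of Polycomb and chromatin remodelling complexes. An OCR was taken when the summit of its ATACseq peak lay within 15 kb of the GENCODE mm10 5′ end of a member gene, which gave 221 of the 184964 peaks counted. Of these peaks, 46 were promoter peaks of the member gene itself (summit within 500 bp of an annotated transcript start), 19 were promoter peaks of a neighbouring protein-coding gene and 156 were distal. A peak is named below by the nearest member gene and the distance in bp of its summit from the 5′ end, with a minus sign for upstream. Only 4 peaks lay within reach of 2 member genes, and each was counted once.

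ATACseq measures chromatin accessibility as the number of fragments that the Tn5 transposase releases from a region. All libraries came from mouse embryonic stem cells (mESCs) grown without serum in LIF with a MEK inhibitor and a GSK3 inhibitor. Each of the 3 lines carried the FKBP degron tag on 1 factor, so that the tagged protein is degraded when dTAG-13 is added. SOX2-FKBP and NANOG-FKBP were made in E14 cells, given as IB10 for SOX2, and OCT4-FKBP in V6.5 cells. The controls (NT) carried the same tag and received DMSO, and the treated cells received 500 nM dTAG-13. SOX2-FKBP had 2 libraries each for NT and for 0.5, 1, 2, 6 and 24 h. OCT4-FKBP had 2 libraries each for NT, 2, 6 and 24 h, and NANOG-FKBP had 2 for NT and 3 each for 2, 6 and 24 h. The tag, the parental strain and the clone differ together between the OCT4-FKBP line and the other lines and cannot be told apart in a comparison of lines. Between SOX2-FKBP and NANOG-FKBP the tagged factor and the clone likewise differ together. Nothing in the labels says that replicates were separate cultures, so the p-values measure the spread between these libraries, which may be technical.

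The 31 libraries held 1817191 to 17575631 counts in peaks. The 3 treated NANOG-FKBP replicate 2 libraries stood apart, with 1817191 to 3272168 counts and 13.2% to 17.6% of counts in the 2 peaks of the mitochondrial genome, against at least 4247580 counts and at most 6.65% elsewhere. At the promoters of marker genes, 7 of 8 embryonic stem cell genes had a peak (not Pou5f1), with a summed NT level of 1681 to 2221 normalized counts over the lines. The summed NT level was 132 to 202 for fibroblast genes (4 of 6 with a peak; the defining genes Col3a1 and Lum had none), 354 to 677 for neural genes (2 of 3), 474 to 916 for primitive endoderm genes (2 of 3) and 139 to 344 for trophectoderm genes (2 of 3). These sums cover unequal numbers of genes and peaks, so the lists cannot be ranked by them. Single genes overlapped, with 296 to 549 over the NT libraries at Sox17 (2 peaks) and 193 to 393 at Nanog (1 peak). In bulk ATACseq, fewer cells with an open region and less opening in each cell cannot be told apart.

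Polycomb complexes keep developmental genes silent: Polycomb repressive complex 2 (PRC2) methylates histone H3, and PRC1 ubiquitinates histone H2A. The BAF, INO80, CHD and ISWI remodellers use ATP to slide, evict or exchange nucleosomes, and NuRD couples such a remodeller to histone deacetylation. In mESCs, SOX2 and OCT4 bind neighbouring sites in many enhancers, and these complexes act in the same pluripotent state.

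The sequences under 8 distal summits are given first, picked from the losses and the differences between SOX2 and OCT4 described below. Each line holds 121 bases around the summit on the plus strand of mm10 (GRCm38). Capitals mark letters searched on both strands: CATTGT or CTTTGT for the SOX family, ATGCAAA for the POU family to which OCT4 belongs, and the SOX letters, 1 base and ATGC for the composite. A SOX match may lie inside a composite match.
Ino80 +13607 (chr2:119464020-119464140): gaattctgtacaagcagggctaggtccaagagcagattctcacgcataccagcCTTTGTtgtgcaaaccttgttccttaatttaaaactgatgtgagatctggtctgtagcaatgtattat
Suz12 -12342 (chr11:79980704-79980824): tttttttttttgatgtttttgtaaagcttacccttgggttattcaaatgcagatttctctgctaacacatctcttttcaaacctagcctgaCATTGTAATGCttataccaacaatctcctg
Rbbp7 -4157 (chrX:162756185-162756305): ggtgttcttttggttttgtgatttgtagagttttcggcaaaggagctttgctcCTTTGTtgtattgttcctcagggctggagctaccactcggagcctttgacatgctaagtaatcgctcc
Mtf2 +11485 (chr5:108077099-108077219): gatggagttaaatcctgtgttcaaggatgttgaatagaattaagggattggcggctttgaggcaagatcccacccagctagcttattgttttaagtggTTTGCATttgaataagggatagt
Rnf2 -14952 (chr1:151515847-151515967): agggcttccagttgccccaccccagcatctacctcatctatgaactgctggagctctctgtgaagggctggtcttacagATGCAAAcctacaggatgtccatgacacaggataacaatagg
Ezh1 -7894 (chr11:101234297-101234417): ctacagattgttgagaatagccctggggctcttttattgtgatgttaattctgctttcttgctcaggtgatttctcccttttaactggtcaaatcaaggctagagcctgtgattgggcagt
Smarca5 -11201 (chr8:80750638-80750758): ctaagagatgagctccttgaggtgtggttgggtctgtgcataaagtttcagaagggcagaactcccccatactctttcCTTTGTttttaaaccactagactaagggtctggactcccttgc
Rbbp7 +10478 (chrX:162770820-162770940): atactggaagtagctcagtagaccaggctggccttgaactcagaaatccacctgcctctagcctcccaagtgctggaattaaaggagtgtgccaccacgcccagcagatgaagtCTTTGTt
The Suz12 -12342 window held the composite letters, and the Mtf2 and Rnf2 windows held POU letters. The Ezh1 window showed none in these 121 bases but held SOX letters in 200 bp around the summit. Of the other peaks named for SOX2 or OCT4 losses or their differences, Ino80 -8942 held SOX letters in 200 bp around the summit. Suz12 -13222, Ezh2 -13187, Ezh2 -6796, Eed +5135, Bmi1 +10126 and Kdm2b +7379 held none of the letters there. In 200 bp windows around the summit, SOX letters were present in 37 of 147 tested distal member peaks (25.2%), against 24.0% of the 42946 distal peaks near any protein-coding gene. POU letters were present in 8 of 147, against 4.08%, and the composite in 1 of 147, against 0.272%. Among the 14 distal member peaks lost at 2 h after SOX2 or OCT4 depletion, 7 held SOX letters, 2 held POU letters and 1 held the composite. The same shares over all lost distal peaks were not counted, so these counts cannot be read as particular to these genes. The POU letters were set after sequences were seen. In the member genes' own promoter peaks, 7 of 46 (15.2%) held SOX letters, against 13.9% of all promoter peaks. These are matches of letters, not measured binding.

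The 3 classes of member peak differed in what the selection did not use. Distal peaks had a median level of 33.6 normalized counts (counts in a library scaled by the TMM method to a total of 10000000), a median width of 640 bp and a median GC content of 48.3%. Promoter peaks of the member genes had medians of 265 counts, 1377 bp and 62.5%. Promoter peaks of neighbouring genes lay between, at 178 counts, 1193 bp and 57.7%. By the annotation, 102 of the 221 summits were intronic, 41 exonic and 78 intergenic. A test was possible for 212 peaks in the fit of all 3 lines and for 205 in the fit of the SOX2-FKBP course, which here gives 0.5 and 1 h only.

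The first question was how soon accessibility near these genes changed after each factor was depleted. After SOX2 depletion, 7 of 205 member peaks had lost accessibility at 0.5 h and 0 had gained (edgeR's quasi-likelihood test, Benjamini-Hochberg adjusted p under 0.05), against 3.14% and 0.158% of all peaks. By unadjusted p under 0.05 the gains at 0.5 h were 5, and DESeq2 called 0. The losses were 10, with 3 gains, at 1 h (5.46% and 0.889% of all peaks) and 12, with 1 gain, of 212 at 2 h (5.06% and 0.574%). They were 13, with 1 gain, at 6 h (6.83% and 1.18%; 12 and 3 with offsets for GC content) and 19, with 9 gains, at 24 h (10.9% and 4.87%). Leaving out a library moved the 0.5 h losses to 2 (without 0.5 h replicate 1) or 4 (without NT replicate 2) and the 1 h losses to 5 (without 1 h replicate 1), while the losses from 2 h onwards stayed within 1.5 times. The 9 gains at 24 h were between 0 (without NT replicate 2) and 5 (without 24 h replicate 2) with a library left out, 1 without 24 h replicate 1 and 3 without NT replicate 1, and 27 with the line fitted alone.

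After OCT4 depletion, 10 of 212 member peaks had lost accessibility at 2 h and 4 had gained it, against 5.1% and 1.92% of all peaks. At 6 h 13 were lost and 6 gained (7.97% and 4.12% of all peaks; 16 and 3 when scaled to total counts), and at 24 h 29 were lost and 36 gained (12.7% and 10.8%). Scaled to total counts, which shifted this comparison by -0.13 on the log2 scale, the 24 h split was 33 lost and 26 gained, and with offsets for GC content it was 27 lost and 16 gained. A block for the replicate number, which paired the OCT4-FKBP libraries, gave 16 losses at 2 h, 22 losses at 6 h and 10 gains at 6 h. The 2 h losses were 6 without 2 h replicate 1 and 5 without NT replicate 2, and the 2 h gains were 1 without 2 h replicate 1. The 6 h gains were 3 without 6 h replicate 2 and 2 without NT replicate 1. The 36 gains at 24 h became 8 without 24 h replicate 1 and 19 without NT replicate 2. After NANOG depletion, 0 of 212 peaks were lost and 0 gained at 2 h, against 0.938% and 0.0162% of all peaks. At 6 h 1 was lost and 0 gained (1.08% and 0.0367%), and at 24 h again 1 was lost and 0 gained (2.25% and 0.288%). By unadjusted p under 0.05, 6 were lower and 5 higher at 2 h, 9 and 4 at 6 h, and 8 and 6 at 24 h. In the NANOG-FKBP line DESeq2 called 0 lost and 0 gained at 2 and 24 h, and 1 lost at 6 h.

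Nearly all losses at 2 h lay in distal peaks. At 2 h, 11 of 147 distal member peaks were lost after SOX2 depletion and 10 after OCT4 depletion, against 3.82% and 4.2% of distal peaks near any protein-coding gene. The distal gains at 2 h were 1 after SOX2 and 4 after OCT4 depletion, against 0.729% and 2.24%. By then 0 of 46 promoter peaks of the member genes had changed in either line by edgeR, and also 0 by unadjusted p under 0.05, against 0.764% lost and 0.199% gained of all promoter peaks after SOX2 and 0.822% and 1.02% after OCT4 depletion. The losses at 2 h fell near 9 genes in the SOX2-FKBP line and 8 in the OCT4-FKBP line, and 7 peaks were in both sets, which is 7 of 11 and 7 of 10. These 7 lay near Ezh2, Ino80, Mtf2, Rbbp7, Rnf2 and Suz12. The overlap among all lost peaks was not counted, so this overlap cannot be read as particular to these genes. At 24 h, 18 distal peaks were lost and 6 gained after SOX2 depletion (9.05% and 4.84% of distal peaks), and 27 were lost and 5 gained after OCT4 depletion (13.1% and 7.17%).

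**Figure D1:**
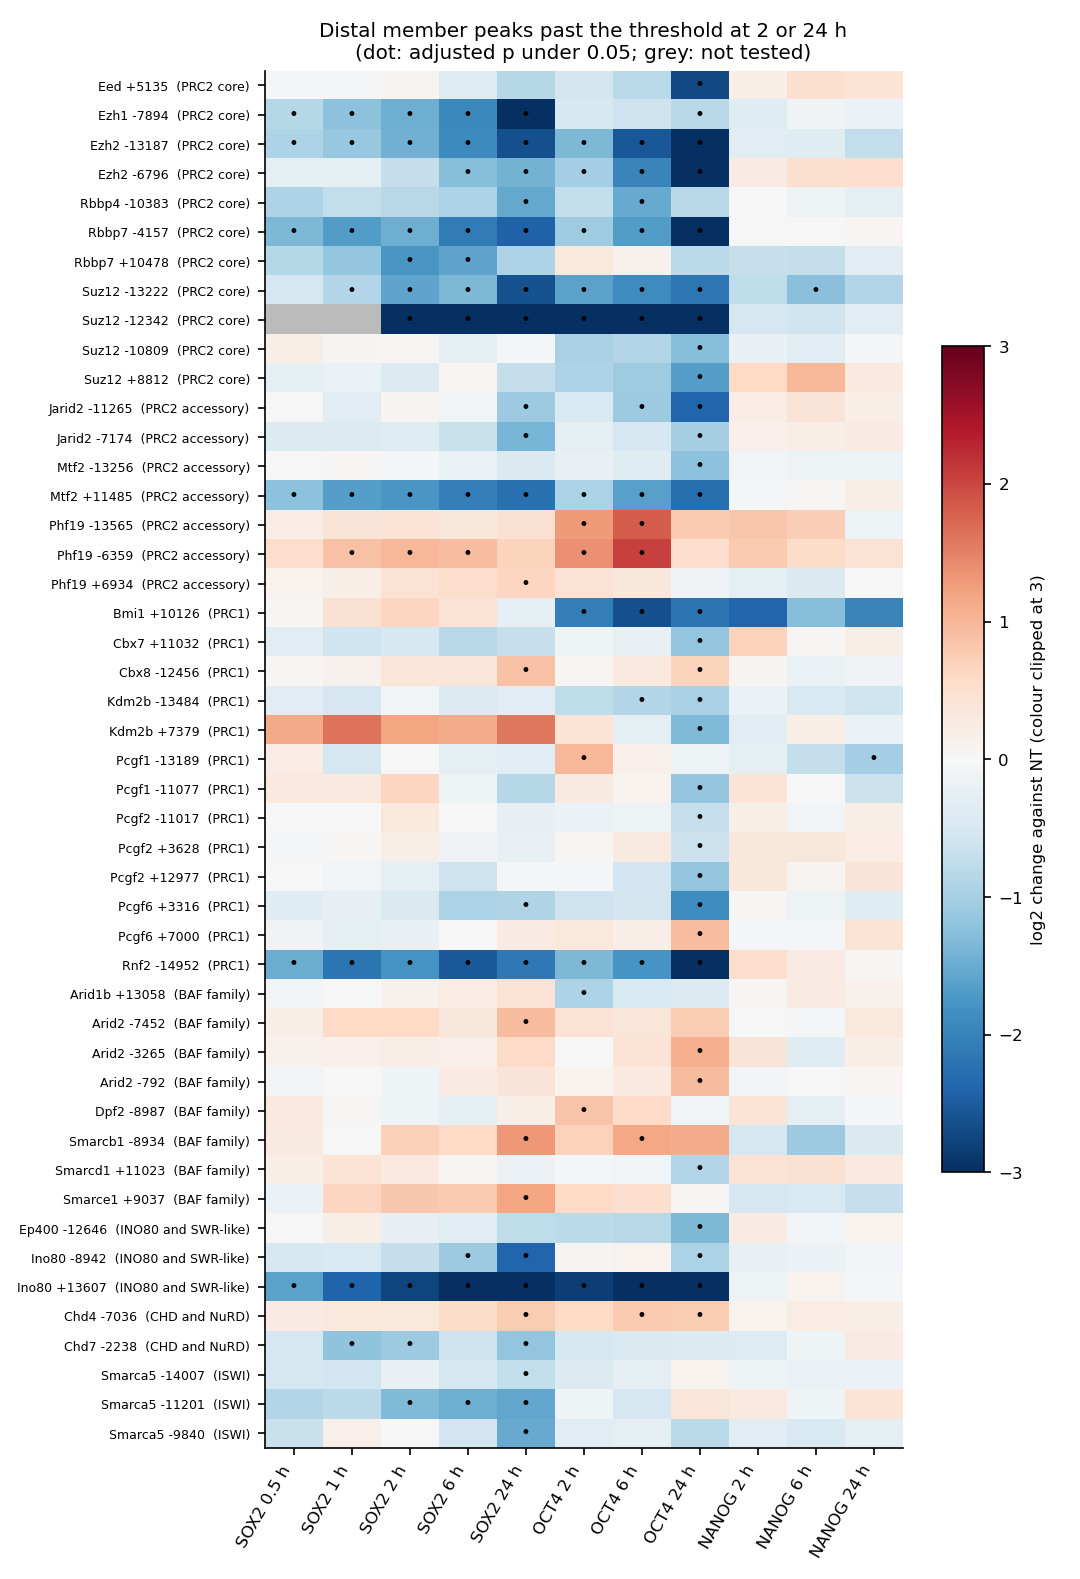
Log2 change against NT of the 47 distal member peaks past the threshold at 2 or 24 h after SOX2 or OCT4 depletion, with peaks in rows grouped by complex and the 11 comparisons in columns. Blue is lower and red higher than NT, a dot marks an adjusted p under 0.05 and grey marks a peak not tested; losses fill the SOX2 and OCT4 columns of a few rows such as Ino80 +13607, and 2 dots stand in the NANOG columns.

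By complex, PRC2 core genes held the most losses at 2 h, with 6 of 34 peaks after SOX2 and 5 of 34 after OCT4 depletion. They had 0 gains in either line. Over all peaks 5.06% were lost and 0.574% gained after SOX2 depletion, and 5.1% and 1.92% after OCT4 depletion. All of these PRC2 core losses lay in its 27 distal peaks, against 3.82% and 4.2% of distal peaks near any protein-coding gene. BAF family genes had 1 loss of 59 peaks in each line at 2 h, and PRC1 genes had 1 of 60 after SOX2 and 2 of 60 after OCT4 depletion. At 24 h the PRC2 core counts were 7 lost and 0 gained after SOX2 depletion (10.9% and 4.87% of all peaks). After OCT4 depletion they were 9 lost and 4 gained (12.7% and 10.8%). Distal peaks were 27 of 34 for the PRC2 core, 39 of 59 for the BAF family and 39 of 60 for PRC1. The losses and gains by complex are counts and were not tested against each other. Over the 11 comparisons 85 of 212 member peaks (40.1%), near 35 genes, were called at least once, against 34.1% of all peaks, and no peak near Cbx2 or Smarca2 was called in any. Around 61 other genes of the same pathways, listed with earlier results of these data known, 6 of 330 peaks were lost and 0 gained at 2 h after SOX2 depletion, 13 and 4 after OCT4 depletion, and 3 and 0 after NANOG depletion. At 24 h the counts there were 23 lost and 23 gained, 36 and 59, and 6 and 1. Over all peaks the shares lost and gained at 2 h were 5.06% and 0.574%, 5.1% and 1.92%, and 0.938% and 0.0162%. At 24 h these shares were 10.9% and 4.87%, 12.7% and 10.8%, and 2.25% and 0.288%.

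PRC2 core genes came first. EZH2 is the main methyltransferase of PRC2, and it had 2 distal peaks among those lost, both intergenic and upstream. The Ezh2 -13187 peak (chr6:47608092-47608777) stood at 70.6 and 69.7 normalized counts in SOX2-FKBP NT, 38.2 and 38 at 0.5 h, 28.1 and 39.4 at 1 h, 25.2 and 25.4 at 2 h, 17.6 and 19 at 6 h, and 8.19 and 13.6 at 24 h. Every treated SOX2-FKBP library lay below both NT libraries. In OCT4-FKBP it went from 74.7 and 116 in NT to 19.7 and 52.8 at 2 h, 15.7 and 16.8 at 6 h, and 9.22 and 11.5 at 24 h. The log2 change was -1.45 ± 0.35 (SE; adjusted p = 0.00581) at 2 h and -2.65 ± 0.41 (adjusted p = 4.04e-06) at 24 h after SOX2 depletion, and -1.34 ± 0.31 (adjusted p = 0.00311) and -3.19 ± 0.43 (adjusted p = 3.95e-07) after OCT4 depletion. The OCT4 call at 2 h was lost without 2 h replicate 1 (-0.85) or without NT replicate 2 (-0.96). In NANOG-FKBP the same Ezh2 peak read 59.3 and 55.9 in NT and 24.8, 41.8 and 44.5 at 24 h, which did not pass the test.

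The nearer Ezh2 peak, -6796 (chr6:47601514-47602484), changed less at 2 h. It read 48.3 and 46.5 in SOX2-FKBP NT, 31.2 and 26.2 at 2 h, and 15.4 and 19.5 at 24 h. In OCT4-FKBP it read 50.4 and 64.2 in NT, 25.6 and 30.4 at 2 h, and 9.22 and 3.27 at 24 h. After OCT4 depletion the log2 change was -1.02 ± 0.32 (adjusted p = 0.0391) at 2 h and -3.15 ± 0.48 (adjusted p = 3.36e-06) at 24 h, and after SOX2 depletion it was -1.42 ± 0.38 (adjusted p = 0.00587) at 24 h. The call at 2 h was lost with DESeq2, with offsets for GC content, with each line fitted alone, and without either 2 h replicate or NT replicate 2.

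SUZ12 is the PRC2 scaffold. Its -13222 peak (chr11:79979666-79980014) read 62.6 and 62.4 in SOX2-FKBP NT and 8.19 and 11.7 at 24 h, and 47 and 68.1 in OCT4-FKBP NT and 12.3 and 13.1 at 24 h. Every 24 h library lay below every NT library of its line. The log2 changes for this Suz12 peak were -1.58 ± 0.31 and -2.61 ± 0.35 at 2 and 24 h after SOX2 depletion (adjusted p = 0.000462 and 3.42e-07), and -1.61 ± 0.30 and -2.17 ± 0.36 after OCT4 depletion (adjusted p = 0.000183 and 1.66e-05). It was also the peak lost 6 h after NANOG depletion, where it went from 79 and 59.3 in NT to 30.9, 18.4 and 33.7 (log2 change -1.25, adjusted p = 0.0171), a call lost without NT replicate 1, 6 h replicate 1 or 6 h replicate 2. The weaker Suz12 -12342 peak (chr11:79980662-79980900), named after its values were seen, holds the composite letters shown above. It fell from 28.6 and 42.1 in SOX2-FKBP NT to 2.01 and 3.5 at 2 h (log2 change -3.54 ± 0.53, adjusted p = 8.63e-06), and from 32.7 and 50.5 in OCT4-FKBP NT to 3.93 and 3.3 (-3.51 ± 0.45, adjusted p = 7.23e-07). In NANOG-FKBP it read 39.5 and 38.9 in NT and 28.1, 51.1 and 28.8 at 24 h.

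RBBP7 is the histone-binding subunit that PRC2 shares with NuRD. The intergenic Rbbp7 -4157 peak (chrX:162755863-162756450) read 101 and 90.0 in SOX2-FKBP NT, 31.5 and 51.2 at 0.5 h, 33.2 and 35 at 2 h, and 15.4 and 19.5 at 24 h. In OCT4-FKBP it read 117 and 113 in NT, 39.3 and 67.3 at 2 h, and 7.68 and 16.4 at 24 h. NT and treated libraries did not overlap in either line, while in NANOG-FKBP the NT values of 128 and 141 lay within the treated range at 24 h of 111 to 209. The log2 change was -1.47 ± 0.30 and -2.43 ± 0.34 at 2 and 24 h after SOX2 depletion (adjusted p = 0.00101 and 6.95e-07), and -1.07 ± 0.27 and -3.24 ± 0.39 after OCT4 depletion (adjusted p = 0.00854 and 3.29e-08). The Rbbp7 call at 2 h after OCT4 depletion was lost without 2 h replicate 1 and with each line fitted alone.

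Among the peaks named by the rule on size of change, the largest loss at 2 h in both lines lay in Ino80, outside the PRC2 core. INO80 is the ATPase of the complex that carries its name. The Ino80 +13607 peak (chr2:119463192-119464592), in an intron of Ino80, read 266 and 292 in SOX2-FKBP NT, 70.6 and 127 at 0.5 h, 54.1 and 55.2 at 1 h, 39.2 and 42 at 2 h, 33.2 and 34.8 at 6 h, and 25.6 and 22.4 at 24 h. In OCT4-FKBP it read 283 and 281 in NT, 35.4 and 42.9 at 2 h, 24.8 and 29.3 at 6 h, and 33.8 and 36 at 24 h. In NANOG-FKBP it read 442 and 344 in NT and 327 to 542 in the treated libraries, so NT and treated libraries overlapped there. The Ino80 log2 change was -2.75 ± 0.25 at 2 h and -3.51 ± 0.27 at 24 h after SOX2 depletion (adjusted p = 1.59e-09 and 6.32e-12), and -2.82 ± 0.25 and -2.99 ± 0.27 after OCT4 depletion (adjusted p = 6.35e-10 and 1.55e-10). The difference between the lines at 2 h was 0.07 ± 0.35 (adjusted p = 0.994), with a 95% interval from -0.62 to 0.76.

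A second Ino80 peak, -8942 (chr2:119486191-119487231), intergenic and upstream, changed less at 2 h. It read 114 and 157 in SOX2-FKBP NT, 92.6 and 70.0 at 2 h, 62.5 and 62.9 at 6 h, and 17.4 and 33.1 at 24 h (log2 change at 24 h -2.38 ± 0.30, adjusted p = 1.21e-07). In OCT4-FKBP it read 112 and 108 in NT and 69.2 and 42.6 at 24 h (-0.95 ± 0.29, adjusted p = 0.0116). The Ino80 -8942 difference between the lines at 24 h, -1.43 ± 0.42, did not pass the test (adjusted p = 0.056).

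MTF2 is an accessory subunit that brings PRC2 to DNA. The Mtf2 +11485 peak (chr5:108076201-108078152), in an intron of Mtf2, read 311 and 241 in SOX2-FKBP NT, 116 and 130.4 at 0.5 h, 78.5 and 84.8 at 2 h, and 57.4 and 59.4 at 24 h. In OCT4-FKBP it fell in steps, from 311 and 352 in NT to 186 and 154 at 2 h, 99.3 and 115 at 6 h, and 56.9 and 80.2 at 24 h. The log2 change at 2 h was -1.74 ± 0.25 after SOX2 depletion (adjusted p = 3.13e-06) and -0.96 ± 0.23 after OCT4 depletion (adjusted p = 0.00412). The Mtf2 difference between the lines, -0.78 ± 0.33, did not pass the test (adjusted p = 0.376). At 24 h the changes were -2.23 ± 0.26 and -2.26 ± 0.26, and the interval of their difference ran from -0.69 to 0.76.

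RNF2 is the catalytic E3 ligase of PRC1. The Rnf2 -14952 peak (chr1:151515699-151516250), just inside the 15 kb limit and intergenic, read 30.4 and 33.4 in SOX2-FKBP NT, 12.1 and 6.12 at 2 h, and 6.14 and 7.78 at 24 h. In OCT4-FKBP it read 67.1 and 51.7 in NT, 18.7 and 26.4 at 2 h, and 9.22 and 4.91 at 24 h. No treated library of either line reached an NT library. The Rnf2 log2 change was -1.79 ± 0.42 and -2.14 ± 0.45 at 2 and 24 h after SOX2 depletion (adjusted p = 0.00431 and 0.000466), and -1.34 ± 0.31 and -3.01 ± 0.45 after OCT4 depletion (adjusted p = 0.00342 and 2.31e-06). The call at 2 h after OCT4 depletion was lost without 2 h replicate 1.

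The losses were also compared with the NANOG-FKBP line, in tests added after the data were seen. At 2 h, the SOX2 change was lower than the NANOG change in 5 of 212 member peaks and higher in 1 (1.48% and 0.273% of all peaks), and the OCT4 change was lower in 3 and higher in 1 (1.61% and 0.907%). At 24 h the counts were 15 lower and 2 higher for SOX2 (5.59% and 1.19%), and 14 lower and 0 higher for OCT4 (6.0% and 2.89%). The Ino80 +13607 difference at 2 h was -2.60 ± 0.33 for SOX2 against NANOG (adjusted p = 5.99e-06) and -2.67 ± 0.32 for OCT4 against NANOG (adjusted p = 2.63e-06). At Suz12 -13222, the peak lost at 6 h in the NANOG-FKBP line, the 24 h difference was -1.73 ± 0.46 for SOX2 (adjusted p = 0.013), and -1.29 ± 0.48 for OCT4 did not pass the test (adjusted p = 0.0859).

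**Figure D2:**
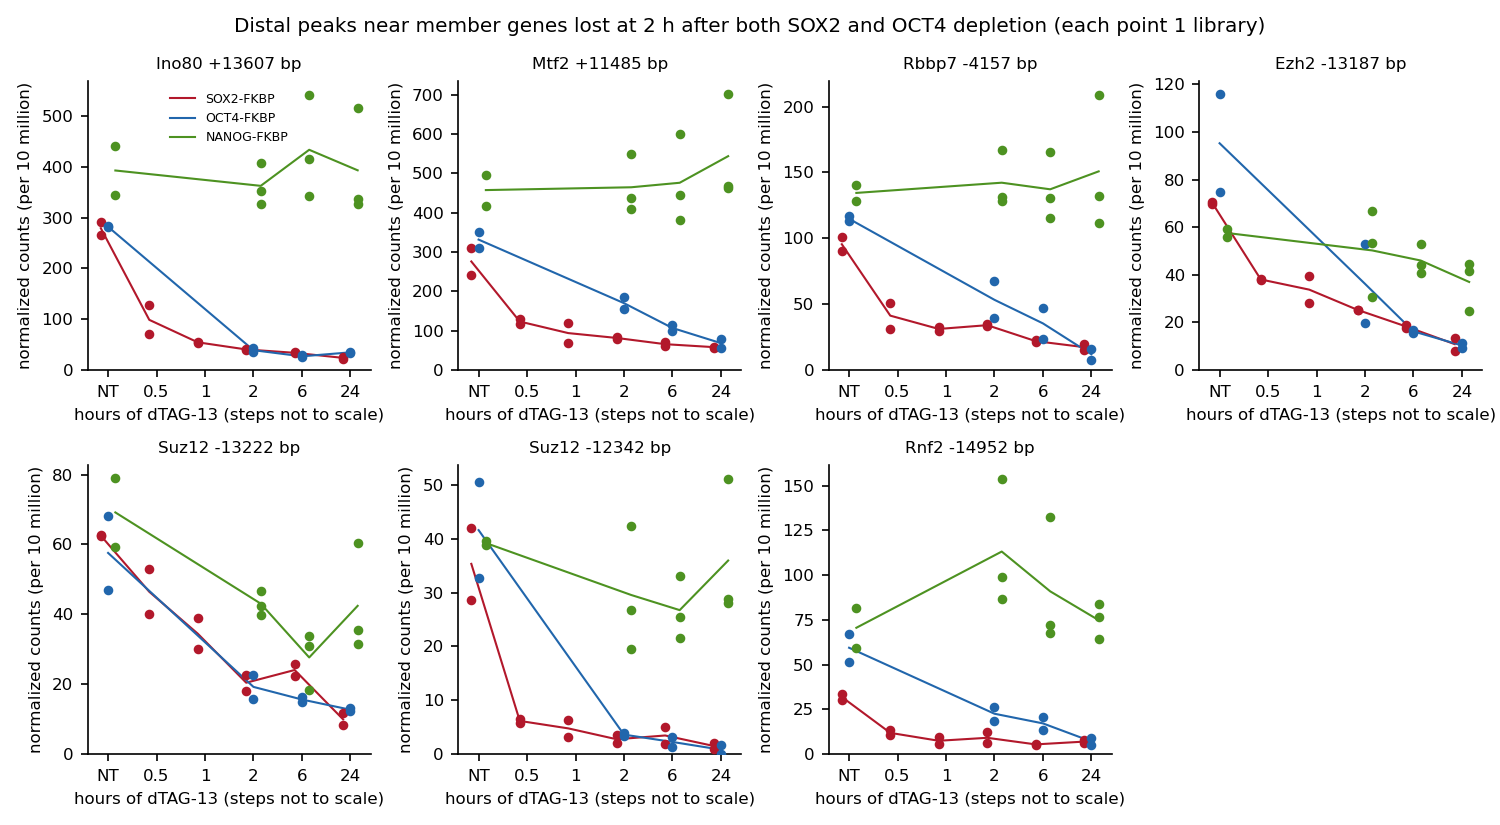
Normalized counts (vertical axes start at 0) against hours of dTAG-13 for the 7 distal peaks lost at 2 h after both SOX2 and OCT4 depletion, with 1 point per library and lines through the group means. SOX2-FKBP (red) and OCT4-FKBP (blue) points fall below NT by 2 h at Ino80 +13607 and Suz12 -12342, while NANOG-FKBP points (green) at Ino80 +13607 stay between 327 and 542.

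The second question was which peaks responded differently to SOX2 and to OCT4, tested as the difference of the log2 changes in a single fit. At 2 h, 1 of 212 member peaks was lower and 1 higher in the SOX2 than in the OCT4 change, against 1.2% and 0.374% of all peaks, and at 24 h 2 were lower and 2 higher (1.67% and 1.1%). With the replicate number as a block in this fit, 5 peaks differed at 2 h and 10 at 24 h, and each of the 6 peaks described here was still past the threshold. The Ezh1 -7894 peak (chr11:101233875-101234948), intergenic and upstream of the gene for the second PRC2 methyltransferase, had the lowest p. It read 159 and 167 in SOX2-FKBP NT, 88.7 and 101 at 0.5 h, 57.3 and 59.5 at 2 h, 44 and 40.6 at 6 h, and 11.3 and 19.5 at 24 h. In OCT4-FKBP it read 163 and 146 in NT, 124 and 97.7 at 2 h, and 99.9 and 70.4 at 24 h. The NT levels of both lines overlapped, and every 24 h library of SOX2-FKBP lay below every 24 h library of OCT4-FKBP. The Ezh1 log2 change at 24 h was -3.37 ± 0.31 after SOX2 depletion (adjusted p = 1.41e-10) and -0.83 ± 0.26 after OCT4 depletion (adjusted p = 0.0144), a difference of -2.53 ± 0.41 (adjusted p = 0.000168). This difference passed the test in every alternative fit and with each library left out.

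The other 5 differences were less secure. SMARCA5 is the ISWI ATPase, and its intergenic -11201 peak (chr8:80750389-80750964) read 63.5 and 68.3 in SOX2-FKBP NT and 22.5 and 21.4 at 24 h, against 43.6 and 34.6 in OCT4-FKBP NT and 32.3 and 67.1 at 24 h. The Smarca5 difference at 24 h was -1.92 ± 0.49 (adjusted p = 0.0193). Chromosome 8 held 7.41% to 7.71% of counts in the OCT4-FKBP libraries and 5.17% to 5.35% in the SOX2-FKBP libraries, in NT and treated alike; its part in the result was not tested. EED, the PRC2 subunit that reads the methyl mark, had an intronic peak at +5135 (chr7:89975484-89976209) with the opposite order. It read 215 and 212 in SOX2-FKBP NT and 122 and 111 at 24 h, and 196 and 237 in OCT4-FKBP NT and 15.4 and 50.7 at 24 h. The Eed log2 change after OCT4 depletion was -2.71 ± 0.39 (adjusted p = 1.32e-06) and the difference was 1.85 ± 0.51 (adjusted p = 0.0373).

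The intronic Rbbp7 +10478 peak (chrX:162770301-162771230) fell at 2 h after SOX2 depletion, from 33.1 and 23.2 to 9.05 and 7.87, while OCT4-FKBP read 47 and 54.5 in NT and 73.7 and 54.1 at 2 h. That Rbbp7 difference was -2.06 ± 0.51 (adjusted p = 0.0235). Downstream of Bmi1, a PRC1 subunit gene, the +10126 peak (chr2:18686986-18687295) read 14.3 and 22.1 in OCT4-FKBP NT and 0.983 and 6.6 at 2 h, and 20.6 and 13.1 in SOX2-FKBP NT and 26.2 and 28 at 2 h. The Bmi1 difference at 2 h was 2.73 ± 0.66 (adjusted p = 0.0178), at levels under 30 normalized counts. In an intron of Kdm2b, which brings a PRC1 variant to CpG islands, the +7379 peak (chr5:122982240-122982701) read 24.3 and 31.8 in OCT4-FKBP NT and 15.4 and 6.55 at 24 h. In SOX2-FKBP it read 4.47 and 1.45 in NT and 6.14 and 13.6 at 24 h, and the Kdm2b difference was 2.91 ± 0.80 (adjusted p = 0.0341). Leaving out a library ended each of these 5 differences in most fits.

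**Figure D3:**
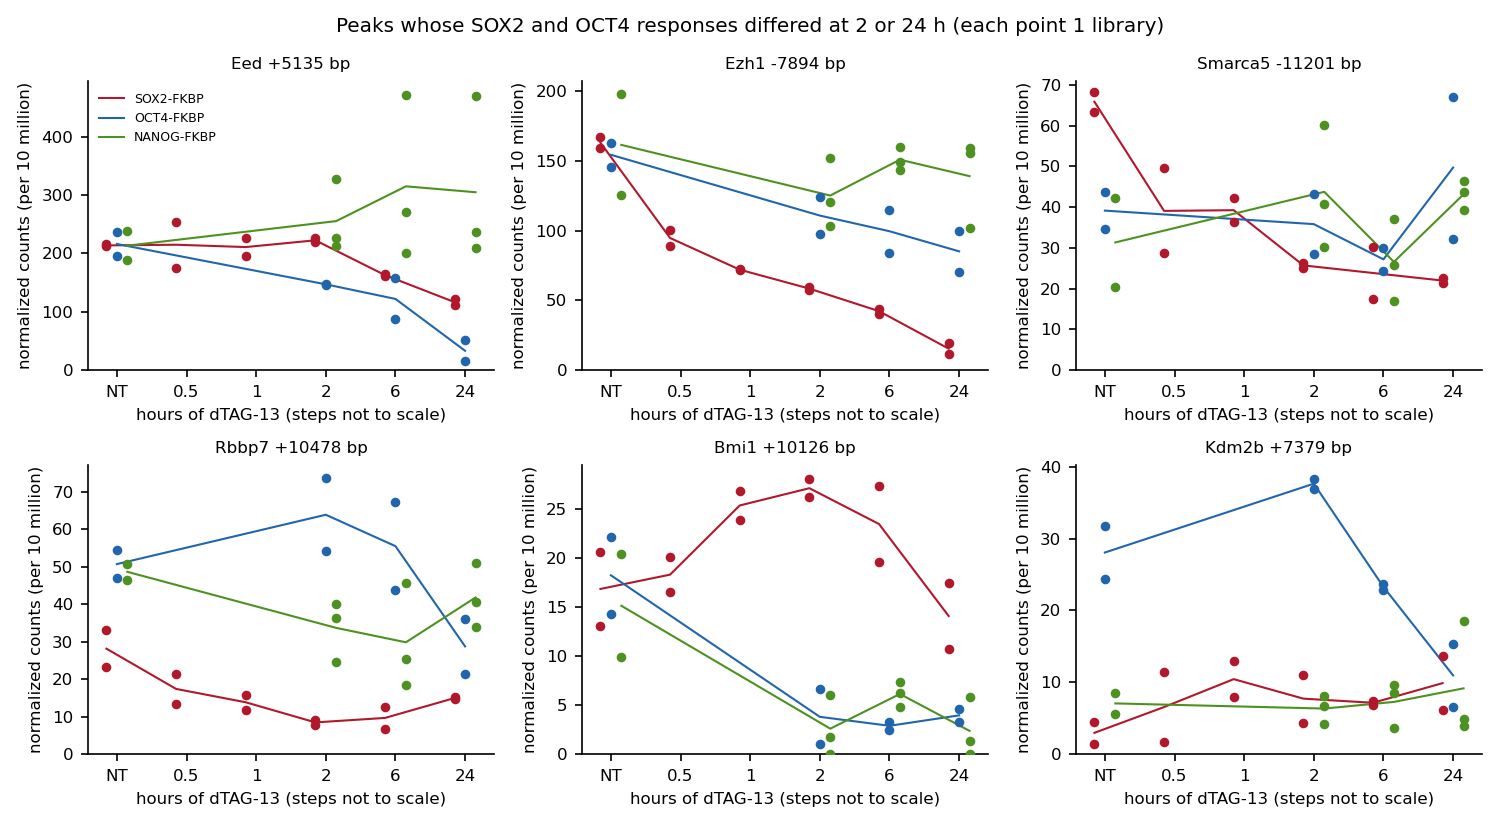
Normalized counts (vertical axes start at 0) against hours of dTAG-13 for the 6 member peaks whose SOX2 and OCT4 changes differed at 2 or 24 h, with 1 point per library and lines through the group means. At Ezh1 -7894 the SOX2-FKBP libraries (red) end at 11.3 and 19.5, below the OCT4-FKBP libraries (blue) at 99.9 and 70.4.

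Gains were fewer than losses in each SOX2 and OCT4 comparison other than OCT4 at 24 h. Every one of the 6 peaks near Phf19, a PRC2 accessory subunit gene, gained accessibility in at least 1 of the 11 comparisons with NT. Over all peaks, 34.1% were lost or gained in at least 1 of them, and the share gained was not counted apart. At 24 h after OCT4 depletion alone, 39.8% of all promoter peaks were gained. The intergenic Phf19 -6359 peak (chr2:34919689-34920654) read 21.8 and 31.8 in OCT4-FKBP NT, 87.5 and 54.8 at 2 h, and 122 and 104 at 6 h. At 24 h it read 33.8 and 44.2 and was no longer past the threshold. In SOX2-FKBP the Phf19 -6359 peak read 77.8 and 75.5 in NT, 146 and 154 at 2 h, and 109 and 133 at 24 h. The log2 change at 2 h was 1.36 ± 0.27 after OCT4 depletion (adjusted p = 0.000571) and 0.98 ± 0.25 after SOX2 depletion (adjusted p = 0.00828). The SOX2 call was lost with any single library of the comparison left out, and the OCT4 call without 2 h replicate 1.

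The second upstream Phf19 peak, -13565 (chr2:34927212-34928680), read 32.7 and 31.2 in OCT4-FKBP NT, 96.3 and 59.4 at 2 h, 119.5 and 105 at 6 h, and 40.0 and 68.8 at 24 h (log2 change at 2 h 1.27 ± 0.30, adjusted p = 0.00378, lost without 2 h replicate 1 or NT replicate 2). The promoter peak of Phf19 at an inner transcript start, +8843 (chr2:34904702-34905628), was the main promoter peak past the threshold at 24 h in 2 lines. It read 279 and 272 in SOX2-FKBP NT and 525 and 433 at 24 h (0.82 ± 0.23, adjusted p = 0.0105), and 284 and 307 in OCT4-FKBP NT and 725 and 467 at 24 h (1.03 ± 0.23, adjusted p = 0.000765). The Phf19 +8843 call after SOX2 depletion was lost with GC offsets (0.55) and without 24 h replicate 1 or either NT replicate.

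**Figure D4:**
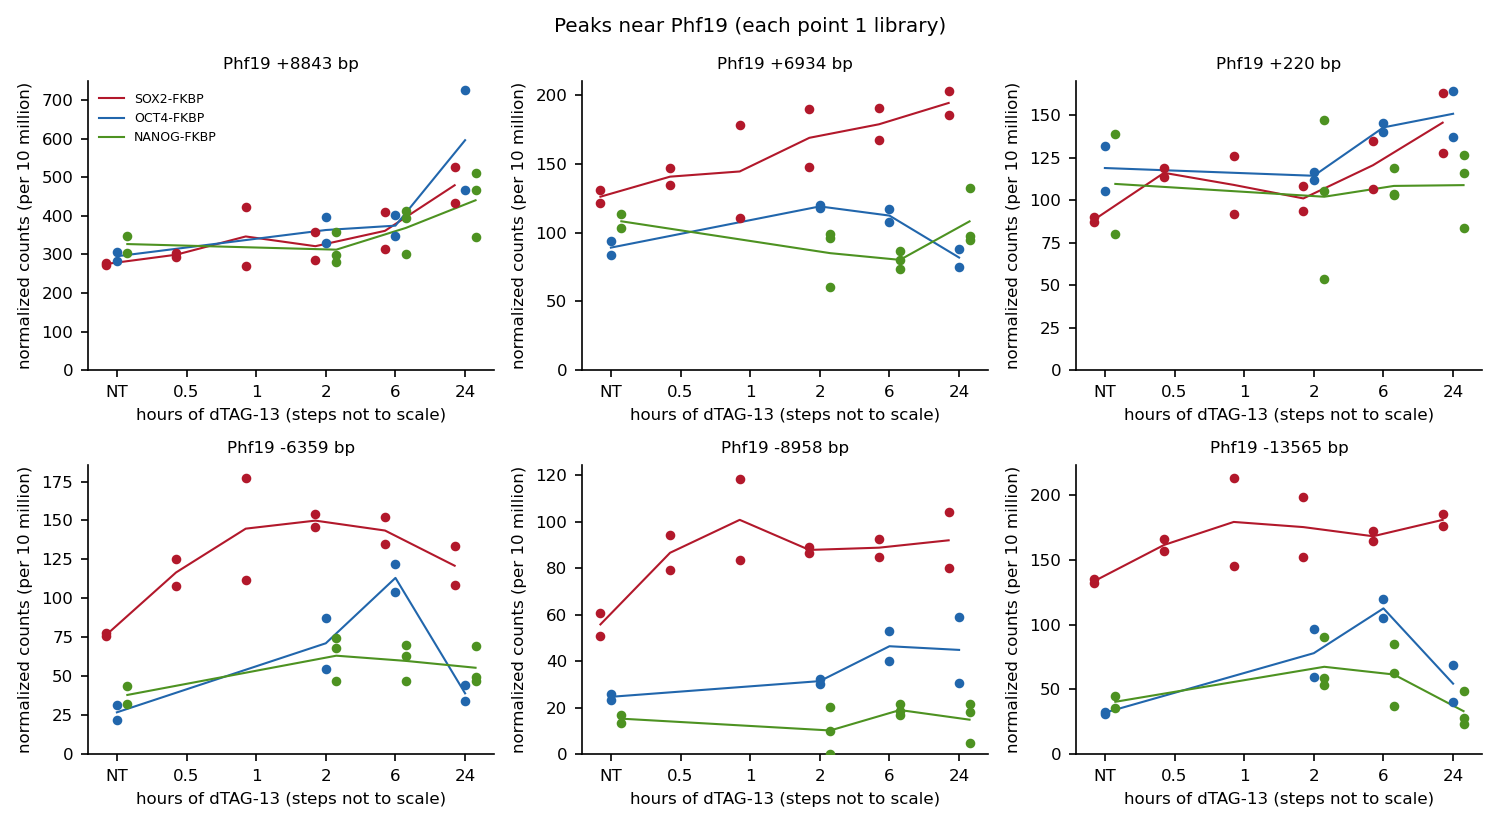
Normalized counts (vertical axes start at 0) against hours of dTAG-13 for the 6 peaks within 15 kb of Phf19, with 1 point per library and lines through the group means. At -6359 and -13565 the OCT4-FKBP libraries (blue) rise from NT to 6 h, where they read 122 and 104 at -6359, and are lower at 24 h.

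Each of the other gains was named by the rule in 1 line and at 1 time, which does not exclude calls elsewhere. At 2 h after OCT4 depletion the Pcgf1 -13189 peak (chr6:83064379-83064966), in an intron of Dqx1 near the gene of a PRC1 subunit, read 47.8 and 55.6 in NT and 97.3 and 109 at 2 h (log2 change 1.00 ± 0.24, adjusted p = 0.00401), and was back at 56.8 and 58 at 6 h. The Pcgf1 gain was lost without 2 h replicate 2 or NT replicate 1. The same peak was the NANOG-FKBP loss at 24 h, from 59.3 and 52.5 in NT to 29.7, 23.2 and 26.2 (-1.03 ± 0.28, adjusted p = 0.0362), a call lost with any single library of the comparison left out. At 2 h after OCT4 depletion the Dpf2 -8987 peak (chr19:5921747-5922419), near the gene of a BAF subunit, went from 84.8 and 52.2 to 162 and 84.5 (0.86 ± 0.26, adjusted p = 0.0367), with overlapping libraries. The Dpf2 call was lost with DESeq2, GC offsets, total counts, each line fitted alone, and without 2 h replicate 1 or NT replicate 2.

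At 24 h after SOX2 depletion, the Smarce1 +9037 peak (chr11:99221587-99222086), in an intron of this BAF subunit gene, rose from 30.4 and 21.8 to 69.6 and 50.6 (1.18 ± 0.31, adjusted p = 0.00614). The Cbx8 -12456 peak (chr11:119052055-119053721), upstream of the gene of a PRC1 subunit that reads the methyl mark, rose from 164 and 129 to 272 and 266 (0.88 ± 0.22, adjusted p = 0.00381). The Chd4 -7036 peak (chr6:125088507-125090979), upstream of the gene of the NuRD ATPase, rose from 203 and 234 to 380.0 and 353 (0.77 ± 0.25, adjusted p = 0.0261). Chd4 -7036 was also called gained at 6 and 24 h after OCT4 depletion. After SOX2 depletion, the Chd4 call was lost with GC offsets and with any single library left out. The Smarce1 call was lost without 24 h replicate 1 or NT replicate 2, and the Cbx8 call without NT replicate 2.

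The third question was whether promoters of these genes changed. A main promoter peak, the strongest peak within 500 bp of an annotated start, was present for 36 of 37 genes, with mean levels of 43.5 to 809 normalized counts and a median of 296. Arid2 had none by this rule on summits, its nearest summits being at -792 and 949 bp, both classed as distal. The -792 peak (chr15:96284879-96288154) was 3276 bp wide and covered the Arid2 5′ end. By edgeR and by DESeq2, none of the 36 passed the test up to 6 h in any line; by unadjusted p under 0.05, 1 of the 46 promoter peaks was higher 6 h after OCT4 depletion and 1 lower 2 h after NANOG depletion. At 24 h after SOX2 depletion the median log2 change was 0.36 (range 0.05 to 0.82), with 1 gain. These SOX2 gains numbered 10 when each line was fitted alone, 9 with the replicate block, 6 with the SOX2 course fitted alone, and 0 without 24 h replicate 1 or either NT replicate. After NANOG depletion the median was 0.16 with 0 gains (0.0524% gained and 0.398% lost among all promoter peaks). At 24 h after OCT4 depletion the median was 0.66 (range -0.27 to 1.42) and 24 of 36 had gained accessibility.

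These gains were shared with promoters in general. Of the 46 promoter peaks of member genes, 28 near 26 genes were gained and 1 was lost at 24 h after OCT4 depletion, against 39.8% gained and 3.71% lost among all promoter peaks, and the medians were 0.66 and 0.52. At 24 h after SOX2 depletion 2 of 46 were gained and 0 lost, against 8.16% and 2.26%, with medians of 0.37 and 0.34. By complex, the OCT4 gains at 24 h were 9 of 13 promoter peaks for the BAF family, 8 of 13 for PRC1, 4 of 7 for the PRC2 core, 3 of 5 for PRC2 accessory genes, 2 of 5 for CHD and NuRD, 1 of 2 for INO80 and SWR-like, and 1 of 1 for ISWI. The share of all counts that fell in promoter peaks was also higher, going from 30.8% to 31.3% in OCT4-FKBP NT to 38.5% to 44.5% at 24 h, and from 27.9% to 28.2% in SOX2-FKBP NT to 33.5% to 35.6% at 24 h. With offsets for GC content, the 36 main promoter peaks at 24 h had a median of 0.19 with 5 gains after OCT4 depletion. After SOX2 depletion their median was 0.06 with 0 gains. The median and the share gained over all promoter peaks were not taken with these offsets. The offsets remove from each library any change that follows GC content over all peaks. A gain shared by GC-rich promoters is removed with it, so these values cannot tell such a gain from a GC effect. The 28 gains became 6 with GC offsets, 20 with scaling to total counts and 16 with each line fitted alone. They became 4 without OCT4-FKBP 24 h replicate 1, 32 without 24 h replicate 2, 19 without NT replicate 1 and 13 without NT replicate 2.

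The named promoter gains at 24 h after OCT4 depletion show the spread between libraries. At Chd7, a CHD remodeller gene, the -284 peak (chr4:8689854-8692275) read 111 and 111 in NT and 361 and 228 at 24 h (1.42 ± 0.31, adjusted p = 0.000618). The Eed +136 promoter peak (chr7:89979993-89981628) read 222 and 255 in NT and 595 and 422 at 24 h (1.11 ± 0.27, adjusted p = 0.00193), while the Eed +5135 peak in its intron fell. The Bmi1 -171 promoter peak (chr2:18676310-18677567) read 163 and 169 in NT and 419.5 and 278 at 24 h (1.09 ± 0.23, adjusted p = 0.000549). The Bmi1 -4716 peak (chr2:18671903-18673095), the promoter peak of Commd3, read 138 and 152 in NT and 349 and 259 at 24 h (1.08 ± 0.23, adjusted p = 0.000552). In each of these peaks replicate 1 at 24 h was the higher library, and both lay above NT. With GC offsets the changes were 0.35 at Chd7 -284, 0.06 at Bmi1 -171 and 0.47 at Bmi1 -4716, none of them past the threshold, while the Eed +136 call was kept. Without 24 h replicate 1 the calls at Eed +136 (0.85) and Bmi1 -171 (0.77) were lost.

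**Figure D5:**
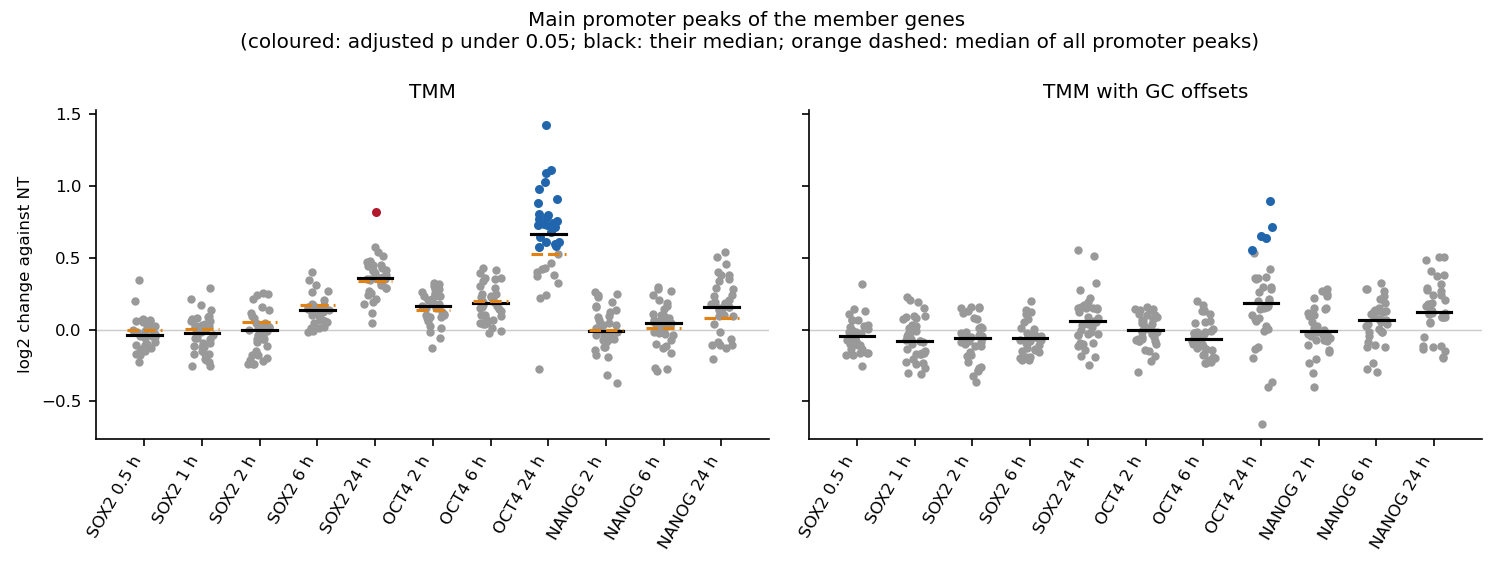
Log2 change against NT of the 36 main promoter peaks of the member genes in the 11 comparisons, with TMM scaling on the left and GC offsets added on the right. Each point is 1 peak, coloured where the adjusted p was under 0.05. Black bars are medians of the points. Orange dashed bars, in the left panel only, are the medians of all promoter peaks. At OCT4 24 h the black bar moves from 0.66 to 0.19, and the offsets also remove gains that GC-rich promoters share.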

How the data were processed

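ATACseq libraries of 3 degron lines were analysed from the processed files. According to the study's methods, the authors mapped reads to mm10 with BWA 0.7.17-r1188, kept reads of mapping quality 10 or more with SAMtools 1.10, removed duplicates with Picard 2.12.0, merged the libraries for peak calling with MACS2 and counted the fragments of each peak. The deposited count table holds unnormalized counts for 31 of 45 samples; the other 14 samples were not analysed here. The deposited peak list gives each peak's summit, a fold enrichment over the local background (a ratio), a score and p and q values, and only the positions and summits were used for the members.

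Counts were tested with edgeR 4.0.16 (R 4.3.3): TMM scaling, the quasi-likelihood test and Benjamini-Hochberg adjustment over all peaks tested, at 0.05. The fit of the 12 SOX2-FKBP libraries kept 160432 peaks (over 10 counts in over 2 of the libraries). That of 27 libraries of the 3 lines kept 166430 peaks (over 10 counts in over 6). Levels are counts scaled by TMM over the 31 libraries to a total of 10000000. Both fits were tested on simulated data. Depth was 1817191 to 17575631 counts per library (median 9496229), and a distal member peak had a median of 33.6 normalized counts.

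Peak classes used GENCODE transcript starts, and sequences were read from the mm10 (GRCm38) genome. The member genes, lists, comparisons and tests were chosen with earlier results of these data known, and the POU letters were set after sequences were seen. Peaks were named by rule: at 2 and 24 h in each line, among member peaks past the threshold with at least 50 normalized counts on average in the higher group and every treated library on the same side of the NT mean, the 6 largest losses and the 4 largest gains; main promoter peaks past the threshold in 2 lines at 24 h; and peaks whose SOX2 and OCT4 changes differed. Replicate numbers were taken to pair the OCT4-FKBP libraries, since all 6 correlations of same-numbered deviations lay between 0.362 and 0.606. Alternatives were DESeq2 1.42.0 (Wald test and size factors), total counts, GC offsets, other count filters, a replicate block with and without GC offsets, each line fitted alone, and each library left out.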

Additional observations from a re-analysis of the deposited data

Results flagged for a closer look

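The results listed here drew attention because the change after depletion differed between lines in a test of the difference itself (edgeR's quasi-likelihood test with Benjamini-Hochberg adjustment over all peaks, adjusted p under 0.05). Values are differences of log2 changes, and lines compared with NANOG-FKBP share its NT libraries. Between SOX2 and OCT4, the differences at 2 h were 2.73 at Bmi1 +10126 and -2.06 at Rbbp7 +10478, and at 24 h -2.53 at Ezh1 -7894, 2.91 at Kdm2b +7379, 1.85 at Eed +5135 and -1.92 at Smarca5 -11201.

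The values against NANOG cover the peaks named by the rule, and the other member peaks past the threshold are given after them. Between SOX2 and NANOG at 2 h, the differences were -2.31 at Rnf2 -14952, -2.60 at Ino80 +13607, -1.72 at Mtf2 +11485, -1.48 at Rbbp7 -4157 and 3.02 at Bmi1 +10126. The Bmi1 value rests on NANOG-FKBP libraries of 0 to 6.06 normalized counts at 2 h. At 24 h they were -3.46 at Ino80 +13607, -2.29 at Ino80 -8942, -3.20 at Ezh1 -7894, -1.95 at Ezh2 -6796, -1.91 at Ezh2 -13187, -1.73 at Suz12 -13222, -2.49 at Rbbp7 -4157, -2.44 at Mtf2 +11485, -2.18 at Rnf2 -14952 and -1.96 at Smarca5 -11201. Positive differences at 24 h were 1.87 at Smarce1 +9037 and 0.99 at Cbx8 -12456. Outside the rule, Suz12 -12342 had the lowest difference at both times, -3.03 at 2 h and -4.08 at 24 h, and the others at 24 h were -1.88 at Smarcd1 +3026, -1.64 at Jarid2 -7174, -1.42 at Chd7 -2238 and -1.29 at Jarid2 -11265.

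Between OCT4 and NANOG at 2 h, the differences were -1.86 at Rnf2 -14952, -2.67 at Ino80 +13607 and 1.30 at Pcgf1 -13189. At 24 h they were -3.05 at Rnf2 -14952, -2.94 at Ino80 +13607, -2.47 at Mtf2 +11485, -3.67 at Ezh2 -6796, -2.45 at Ezh2 -13187, -3.11 at Eed +5135 and -3.29 at Rbbp7 -4157. Outside the rule, Suz12 -12342 again had the lowest difference, -3.002 at 2 h and -5.19 at 24 h. The others at 24 h were -2.58 at Jarid2 -11265, -1.91 at Smarcd1 +3026, -1.48 at Pcgf6 +3316, -1.47 at Ep400 -12646, -1.25 at Jarid2 -7174 and -1.07 at Mtf2 -13256. The OCT4-FKBP line is V6.5 and the NANOG-FKBP line E14, so factor and parental line cannot be told apart in these values.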

How the results depend on the processing

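For the 44 values of named peaks, 425 values under other settings held 400 that stayed on their side of the threshold, 25 that no longer passed it and 0 that changed direction. Of 201 values with a library left out, 139 stayed, 62 no longer passed and 0 changed direction. Counts of member peaks (lost or gained) that moved by over 1.5 times are given here, and the cause was not tested. DESeq2's Wald test gave 4 lost for SOX2 at 0.5 h, 6 lost and 1 gained at 1 h, 3 gained for OCT4 at 6 h, 0 lost for NANOG at 24 h and 1 differing between SOX2 and OCT4 at 2 h. GC offsets gave 3 gained for SOX2 at 6 h and 16 gained for OCT4 at 24 h. Total counts gave 3 gained for OCT4 at 6 h, 0 lost for NANOG at 24 h and 1 differing at 2 h. Each line fitted alone gave 4 and 27 gained for SOX2 at 6 and 24 h, 2 and 21 gained for OCT4 at 6 and 24 h, and 0 lost for NANOG at 24 h. Requiring at least 10 counts in every library, which left 88 member peaks in the fit of 3 lines, gave 6 lost and 1 gained for SOX2 at 1 h, 4 and 0 at 2 h, 7 and 0 at 6 h, 9 and 5 at 24 h, 5 and 0 for OCT4 at 2 h, 5 and 1 at 6 h, 0 lost for NANOG at 6 and at 24 h, and 0 and 2 differing at 2 and 24 h. Removing the count filter and using DESeq2's size factors moved no count by over 1.5 times. Chosen after seeing the data, the SOX2 course fitted alone with 0.5 and 1 h gave 2 and 21 gained at 6 and 24 h, and leaving out the 3 shallow NANOG-FKBP replicate 2 libraries gave 0 lost for NANOG at 6 h.

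The replicate number as a block gave 6 and 25 gained for SOX2 at 6 and 24 h, 16 losses for OCT4 at 2 h, 22 losses with 10 gains at 6 h, and for NANOG 1 and 1 at 2 h, 2 and 1 at 6 h and 4 and 2 at 24 h. It gave 5 and 10 differing at 2 and 24 h. With the block and GC offsets, the gains were 3, 8, 7, 7 and 25 for SOX2 at 0.5, 1, 2, 6 and 24 h and 8 and 17 for OCT4 at 2 and 6 h, NANOG had 1 lost and 1 gained at 2 h, 2 and 1 at 6 h and 4 and 4 at 24 h, and 7 and 12 differed at 2 and 24 h. Over peaks where no library had under 10 counts, the correlations of same-numbered deviations in SOX2-FKBP ran from 0.146 to 0.186 for NT with treated and from 0.0887 to 0.506 between treated times, all 15 positive but not all over 0.1. In NANOG-FKBP they ran from -0.0724 to 0.0900 for NT with treated and from 0.442 to 0.524 between treated times. In these lines the samples were therefore taken to share only a number. By the share of counts on chromosome 8, NANOG-FKBP NT replicate 2 was near treated replicate 3 and not treated replicate 2. The block moved no other count by over 1.5 times.

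With a library left out, SOX2 losses ranged over 2 to 6 at 0.5 h, 5 to 10 at 1 h, 9 to 11 at 2 h, 10 to 13 at 6 h and 15 to 17 at 24 h, and SOX2 gains over 0 to 5 at 1 h, 0 to 0 at 2 and 6 h and 0 to 5 at 24 h. OCT4 losses ranged over 5 to 10 at 2 h, 11 to 13 at 6 h and 20 to 22 at 24 h, and OCT4 gains over 1 to 3 at 2 h, 2 to 4 at 6 h and 8 to 43 at 24 h, the 8 without 24 h replicate 1. NANOG losses ranged over 0 to 1 at 6 and 24 h, and peaks that differed between SOX2 and OCT4 over 0 to 3 at 2 h and 1 to 4 at 24 h. Where an arm was left with 1 library, it was assumed to vary like the other groups. With a median of 33.6 normalized counts in distal member peaks and 2 or 3 libraries a group, small changes in distal peaks were not detectable at this depth.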

Other observations

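Some member peaks differed between the lines before any depletion; these are values and were not tested. The Phf19 -13565 peak read 135 and 132 normalized counts in SOX2-FKBP NT, 32.7 and 31.2 in OCT4-FKBP NT and 45.2 and 35.6 in NANOG-FKBP NT. The Phf19 -6359 peak read 77.8 and 75.5, 21.8 and 31.8, and 43.8 and 32.2 in the same order. Both of these Phf19 peaks lie upstream of the gene, and the E14 lines SOX2-FKBP and NANOG-FKBP did not overlap there either. The Chd4 -7036 peak read 203 and 234 in SOX2-FKBP NT, 496 and 449.6 in OCT4-FKBP NT, and 263 and 320.0 in NANOG-FKBP NT. The Kdm2b +7379 peak read 4.47 and 1.45, 24.3 and 31.8, and 5.64 and 8.47, so that its OCT4 loss at 24 h started from a level that the other lines did not have.

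The Smarcd1 +3026 peak, singled out after its values were seen, lies in an intron of Smarcd1, the gene of a BAF subunit, and was classed as a promoter peak of the overlapping gene Gm17349. It read 269.9 and 319 in SOX2-FKBP NT and 80.9 and 81.7 at 24 h (log2 change -1.83 ± 0.27, edgeR adjusted p = 2.15e-06), and 372 and 348 in OCT4-FKBP NT and 114 and 81.9 at 24 h (-1.86 ± 0.27, adjusted p = 1.86e-06). In NANOG-FKBP the Smarcd1 +3026 peak read 367 and 334 in NT and 285, 520.2 and 332 at 24 h. The promoter peak of Mbd3 at +4180, a NuRD subunit gene, was the promoter peak lost at 24 h after OCT4 depletion, from 118 and 108 to 64.5 and 65.5 (-0.78 ± 0.24, adjusted p = 0.0139). That peak lies at an inner transcript start. The main Mbd3 promoter peak, at -165, did not pass the edgeR test in that comparison (0.22, adjusted p = 0.663).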
